A study of Mus musculus with 29 samples.

Results

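The genes described here are the nuclear genes named for proteins of the mitochondrial ribosome, Mrpl for the large subunit and Mrps for the small subunit, in the mammary fat of lean, obese and diet-treated mice. Of the 30818 rows of the expression table, 82 had a symbol beginning with Mrpl or Mrps and a number, and 4 of these were pseudogenes and were left out. The remaining 78 genes, 49 Mrpl and 29 Mrps, all had a deposited value of 6 or more in at least 4 libraries, so the minimum removed none. Their lowest value in any library was 7.87 on the deposited log2 scale, for Mrps28. All 78 are annotated as protein coding in GENCODE vM21 on the GRCm38 build, on 17 chromosomes.

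Mitochondria carry their own ribosomes, which translate the few messages encoded by mitochondrial DNA, all of them for subunits of the respiratory chain and ATP synthase. The ribosomal RNAs of these ribosomes are mitochondrial, whereas every one of their proteins is encoded in the nucleus, made in the cytosol and imported. Many of the proteins have counterparts in bacterial ribosomes and others are specific to mitochondria. In fat, the respiratory chain of adipocytes serves lipid turnover and, in thermogenic cells, heat production. A gene's Mrpl or Mrps symbol does not always give its subunit: the products of Mrps18a and Mrps30 are placed in the large subunit of the mammalian mitoribosome, and that of Mrps36 has since been assigned to the alpha-ketoglutarate dehydrogenase complex.

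The libraries came from wild-type C57BL/6N mice. LFCR (5 libraries), MCR (4) and ICR (5) mice had become obese on a 60% fat diet and then lost weight on a low-fat diet restricted by 30%, a Mediterranean-style diet restricted by 30%, or intermittent restriction. LFD mice (5) were switched from the same obesity to a low-fat diet eaten freely, Obese mice (5) stayed obese, and Control mice (5) ate the control diet throughout. Mice of every group received an injection of E0771 cells, a mouse mammary cancer line, in the 4th mammary fat pad in week 25, and the RNA came from the 9th pad on the opposite side, so all groups, Control included, had received tumor cells in another pad. The titles and some label fields name the tumor and the cell line, whereas the tissue field, which is followed here, names normal mammary tissue. Adipocyte and luminal epithelial genes were expressed in every library, and whether any library holds tumor cells was not tested.

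The libraries held between 16403903 and 49026986 recovered reads, with the 5 libraries of lane 4 between 16403903 and 18212783 and all others at 29008340 or more. The 78 genes together took 32731 to 94584 reads per library, which is 0.163% to 0.216% of the reads. In 8 libraries (LFCR 1 and 3, MCR 1, 3 and 4, LFD 1, Obese 1 and 5) the mean of 13 B cell genes was 5.41 to 6.36 on the log2 scale, against 9.73 to 12.21 in the other 21, so these are given with and without where a count rests on them. The labels do not say whether each library is a separate animal, so the p-values cover only the spread among libraries. Libraries of 1 group could differ widely, with a B cell mean of 5.77 in Obese 1 and 11.89 in Obese 4. Between 2 libraries of a group, chi-square per gene over recovered reads was 21.0 (Obese 2 and 3) to 297 (Control 2 and 4). How much of the spread is technical was not tested.

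Across the groups, the mitoribosomal genes as a set stood highest in the LFCR and MCR fat pads. The mean of the 78 values was 9.83 ± 0.12 in LFCR libraries, 9.77 ± 0.18 in MCR libraries, 9.53 ± 0.04 in ICR libraries, 9.52 ± 0.15 in LFD libraries, 9.42 ± 0.14 in Obese libraries and 9.42 ± 0.17 in Control libraries (log2 scale, SD over libraries, n = 5, or 4 for MCR). Every LFCR library, from 9.64 to 9.96, lay above every Obese library, from 9.22 to 9.56. The MCR libraries ran from 9.53 to 9.93, and the lowest of them, MCR 2, fell inside the Obese range. That library was also the single MCR library not low in B cell genes and had an adipocyte gene mean of 14.71, below the other 3. With 16403903 recovered reads, in lane 4, MCR 2 had the fewest of all 29 libraries, against 36248277 to 43999483 in the other MCR libraries. The ICR libraries were the tightest, at 9.46 to 9.57. In bulk tissue, fewer cells of a type and less RNA per cell cannot be told apart.

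**Figure D1:**
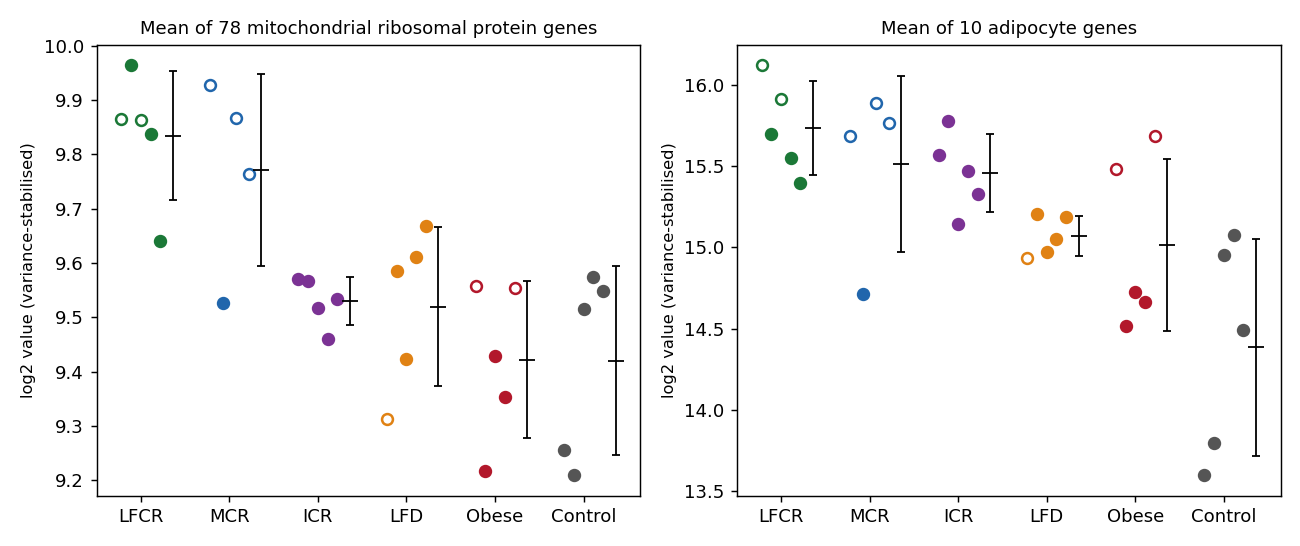
Mean log2 value of the 78 mitochondrial ribosomal protein genes (left) and of 10 adipocyte genes (right), 1 point per library, by group. Open points are the 8 libraries low in B cell genes, and the dash and bar beside each group are the mean and SD. All LFCR points for the mitoribosomal genes lie above all Obese points, and the adipocyte mean is lowest in Control libraries 1 and 2.

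Mrpl and Mrps genes kept nearly the same offset. The mean of the Mrps genes exceeded that of the Mrpl genes by 0.01 to 0.09 on the log2 scale across the 29 libraries, with group averages of 0.05 in LFCR, 0.05 in MCR, 0.06 in ICR, 0.06 in LFD, 0.04 in Obese and 0.02 in Control libraries. Per kilobase of annotated exon, the level was highest for Mrps21 (1316 normalized counts per kb), Mrps6 (1191) and Mrpl10 (891) and lowest for Mrpl47 (99.98), Mrps35 (85.8) and Mrpl23 (66.0). The length joins all annotated exons of a gene, so this order depends on the annotation. Mrps35, with 8631 such bases, averaged 740 normalized counts, against 320 for Mrps11 with 2172 bases. Mrps21 and Mrps6 encode counterparts of bacterial S21 and S6, and Mrpl10 the base of the stalk that calls translation factors to the ribosome.

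In LFCR against Obese, most of the mitoribosomal genes rose. Of the 78 genes, 48 rose and 0 fell at an adjusted p under 0.05, by limma with Benjamini-Hochberg adjustment over 19387 genes; 61 had an unadjusted p under 0.05, as had 6410 of the 19387 genes, and voom on the recovered reads called 50 members. Over all genes tested, 21.4% were called in this comparison, 11.9% higher and 9.42% lower. A total of 77 genes had a higher LFCR mean and their median difference was 0.40, against a median of -0.04 over all genes tested. The 48 comprised 32 of the 49 Mrpl genes and 16 of the 29 Mrps genes, with Mrps18a, Mrps30 and Mrps36 counted by symbol. In 37 of the 78 every LFCR library was above every Obese library, an arrangement seen in 8.82% of all genes. The count was 55 without the 8 libraries low in B cell genes, and 43 to 51 when any 1 library was left out.

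Mrps15, a counterpart of the bacterial protein S15 that binds the small ribosomal RNA, had the largest rise. It had 1966, 1651, 1624, 1357 and 1163 normalized counts in LFCR libraries, against 855, 627, 691, 673 and 809.7 in Obese libraries. The groups did not overlap, and the lowest LFCR library stood above the highest Obese one by more than the whole Obese range. Its log2 difference was 1.05 ± 0.16 (SE; adjusted p = 6.94e-05). MCR libraries had 1520.2, 992.5, 1387 and 1248 normalized counts, also clear of the Obese libraries (difference 0.79 ± 0.17, adjusted p = 0.00403). The gene lies at chr4:126046925-126055532 on the plus strand of GRCm38 and has 8 exon blocks.

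Mrpl12, the stalk protein that in human cells also binds the mitochondrial RNA polymerase, came next. It had 1515, 2329, 1805, 1875 and 1492 normalized counts in LFCR libraries and 2205, 1277, 1966 and 1613 in MCR libraries, against 1037, 685.5, 909.8, 829.9 and 1028 in Obese libraries. Both restricted groups stayed above all Obese libraries. The log2 difference from Obese was 0.98 ± 0.19 in LFCR (adjusted p = 0.000572) and 0.94 ± 0.20 in MCR libraries (adjusted p = 0.00348). Mrpl12 lies at chr11:120484613-120489065 on the plus strand, and Gm16755, a noncoding gene, covers 13.1% of its exonic length on the other strand. Gm16755 itself rose by 0.61 in LFCR against Obese (adjusted p = 0.000627). Whether counting used the strand is not given in the sources used here, so reads could not be assigned between them.

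The other 4 of the 6 largest rises were Mrpl42, Mrps35, Mrpl39 and Mrps18a. Mrpl42, a mitochondria-specific protein, had 1847, 1486, 1489, 1213 and 1040.2 normalized counts in LFCR libraries, against 862, 619, 773, 729 and 929 in Obese libraries (difference 0.82 ± 0.18, adjusted p = 0.00214). Mrps35, a mitochondria-specific protein of the small subunit, had 1193, 955, 1053, 777 and 743 in LFCR libraries, against 558, 464, 539, 540.0 and 574 in Obese libraries (0.77 ± 0.11, adjusted p = 2.75e-05). Mrpl39, related in sequence to threonyl-tRNA synthetases, had 1421, 1034, 1046, 929.6 and 825 in LFCR libraries, against 663, 530.4, 645, 594 and 679.6 in Obese libraries (0.71 ± 0.13, adjusted p = 0.000315). None of these 3 had an LFCR library inside the Obese range. Mrps18a ranged from 853 to 1107 in LFCR libraries, against 504 to 687 in Obese libraries, and had the smallest adjusted p of all members (0.67 ± 0.09, adjusted p = 2.72e-05).

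**Figure D2:**
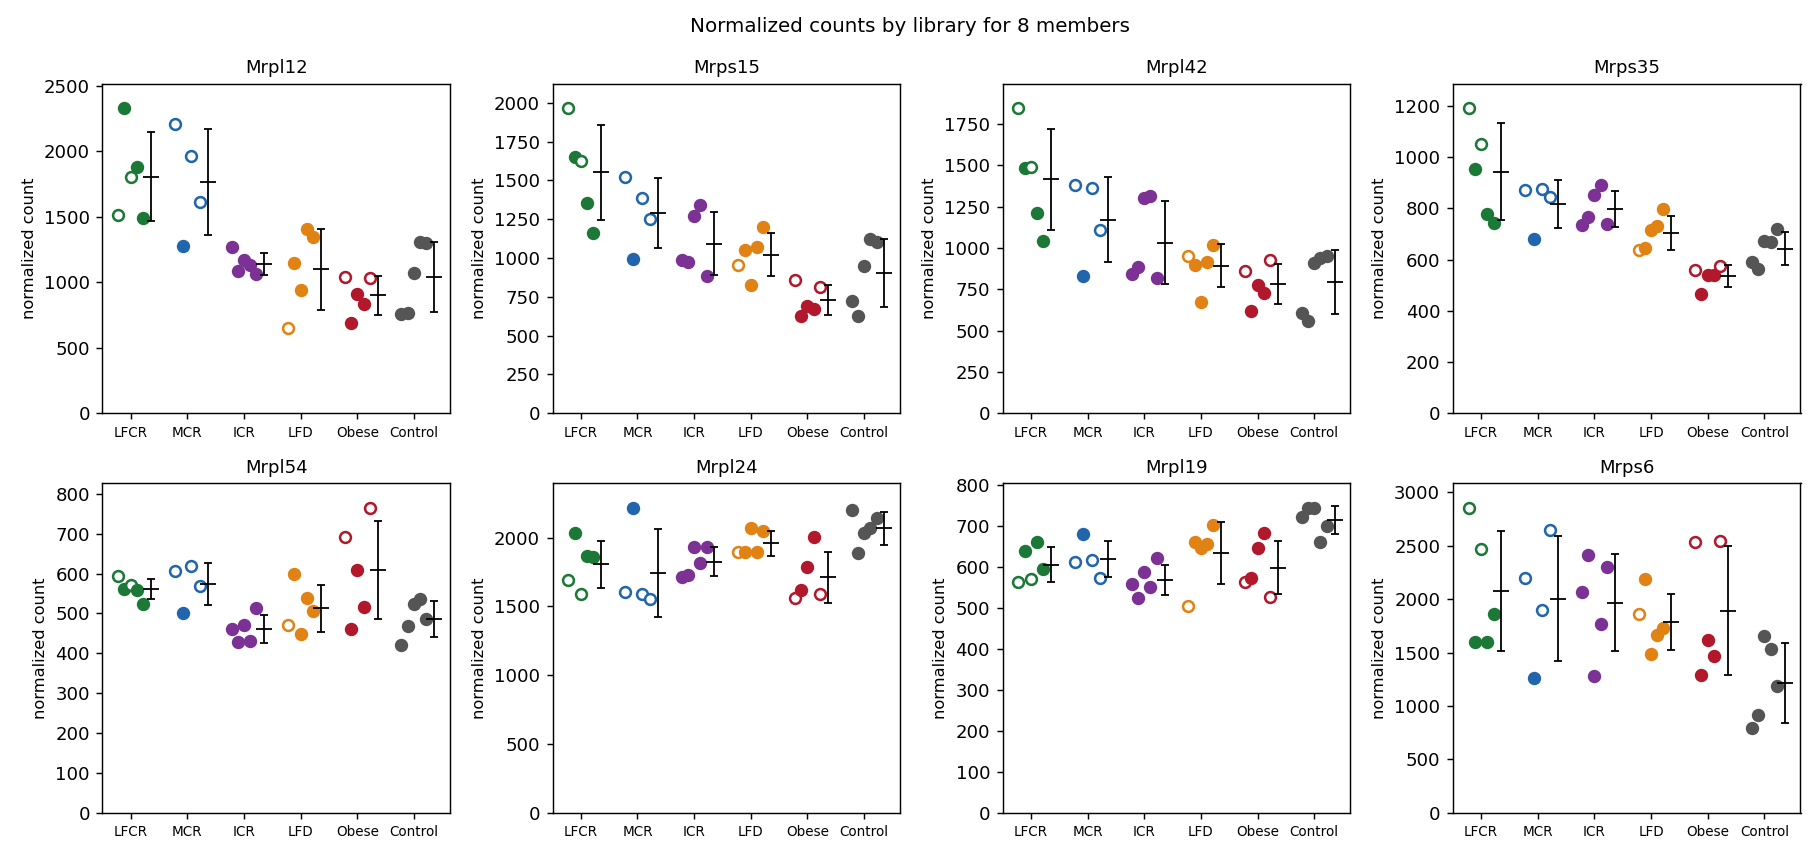
Normalized counts of 8 mitoribosomal genes in every library, by group, with each group's mean and SD to the right of its points. Open points are the 8 libraries low in B cell genes. Mrpl12, Mrps15, Mrpl42 and Mrps35 are higher in LFCR than in Obese libraries with no overlap, whereas the LFCR and Obese points of Mrpl54, Mrpl24, Mrpl19 and Mrps6 overlap.

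By role, members of most groups fell on both sides of the threshold. Of the 4 stalk genes, Mrpl12, Mrpl10 (0.46 ± 0.11, adjusted p = 0.00312) and Mrpl11 (0.40 ± 0.13, adjusted p = 0.0322) rose in LFCR against Obese, and Mrpl53 had a difference of 0.39 with an adjusted p of 0.129. Mrpl53 shares 88.0% of its exonic length with the coding gene Gm42688 on the same strand. Of the 3 S18 paralogs, which occupy different places in the mitoribosome, Mrps18a rose, and Mrps18c (0.32, adjusted p = 0.0858) and Mrps18b (0.19, adjusted p = 0.163) did not pass. Among 6 proteins around the exit of the peptide tunnel, Mrpl39, Mrpl45 (0.61, adjusted p = 7.34e-05), which tethers the ribosome to the inner membrane, and Mrpl22 (0.44, adjusted p = 0.0128) rose. Mrpl44 (0.20, adjusted p = 0.202), Mrpl23 (0.12, adjusted p = 0.353) and Mrpl24 (0.08, adjusted p = 0.580) did not.

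Of 15 members singled out for a known role, 11 rose in LFCR against Obese. They include Mrps22 (0.65, adjusted p = 0.00106), Mrps2 (0.40, adjusted p = 0.00246) and Mrpl3 (0.42, adjusted p = 7.18e-05), in which inherited mutations cause combined respiratory chain deficiency in people. They also include Mrps27, an RNA-binding protein of the pentatricopeptide repeat family (0.54, adjusted p = 0.000670), Mrps30 (0.57, adjusted p = 0.000273), Mrpl37 (0.35, adjusted p = 0.00459) and the ribosome rescue hydrolase Mrpl58 (0.30, adjusted p = 0.00842). Mrps36, the dehydrogenase subunit, rose by 0.64 (adjusted p = 0.00414). Mrps16 (0.46, adjusted p = 0.0512) and Mrps34 (0.30, adjusted p = 0.0932), also disease genes, had higher means that did not pass.

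The members with the smallest differences between LFCR and Obese fat pads did not pass the test. Mrpl19 averaged 605 ± 43 normalized counts in LFCR libraries and 598 ± 64 in Obese libraries (SD, n = 5 each; log2 difference 0.02 ± 0.08, adjusted p = 0.888). The differences were 0.05 ± 0.12 for Mrpl52 (adjusted p = 0.801) and 0.08 ± 0.11 for Mrpl33 (adjusted p = 0.657), and Mrpl54 was the 1 gene with a lower LFCR mean (-0.09, adjusted p = 0.595). Mrpl19 and Mrpl33 are counterparts of bacterial L19 and L33, and Mrpl52 and Mrpl54 are mitochondria-specific.

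**Figure D3:**
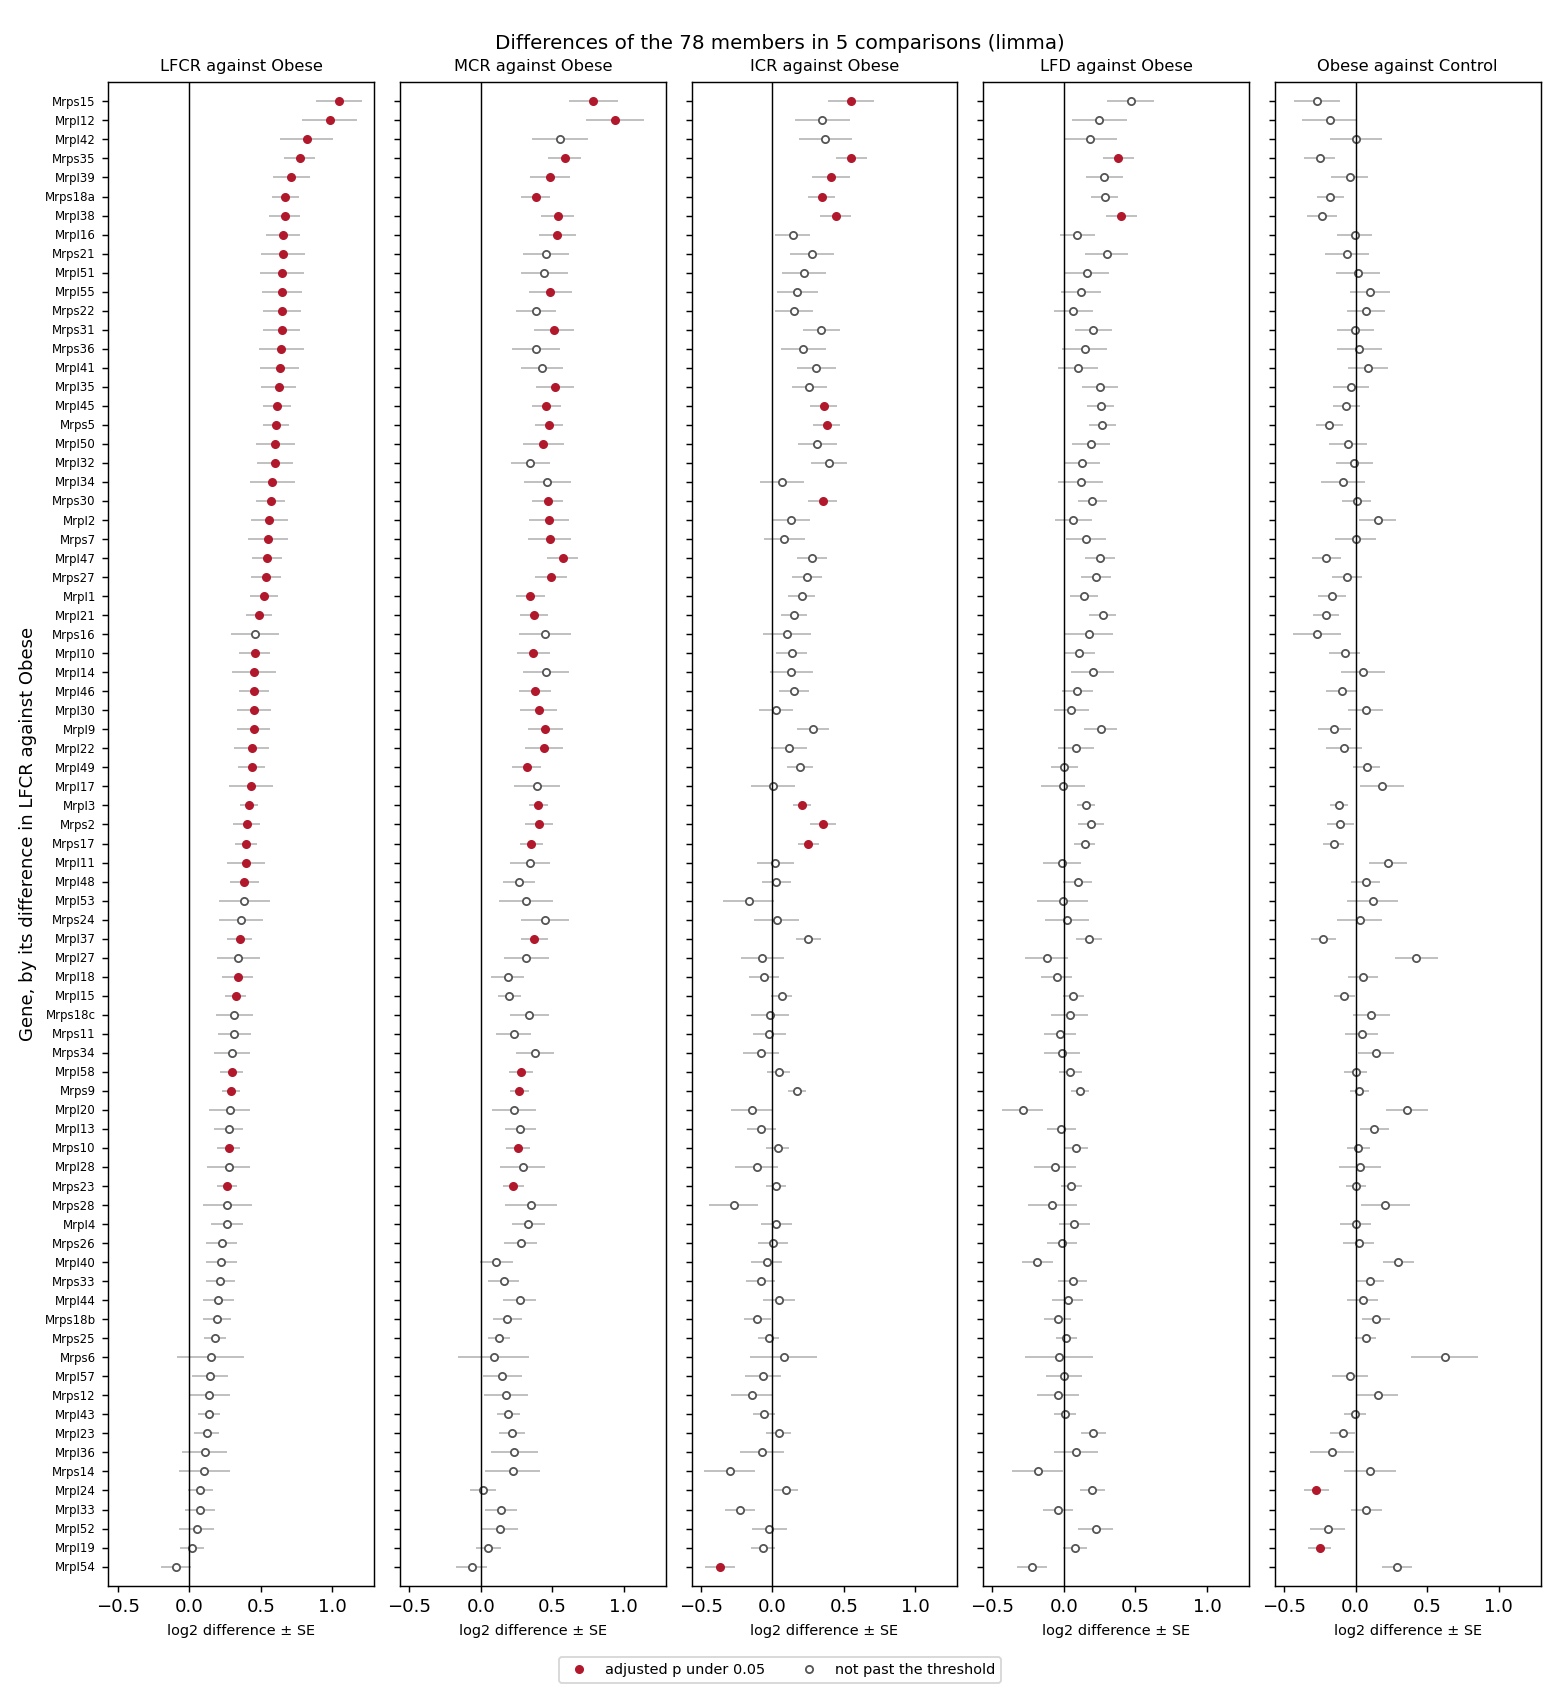
Log2 difference with its SE for each of the 78 genes (rows, ordered by LFCR against Obese) in 5 comparisons. Filled red points have an adjusted p under 0.05 (limma). There are 48 such points in LFCR against Obese, 34 in MCR, 12 in ICR and 2 in LFD against Obese, and 2 in Obese against Control.

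MCR against Obese gave 34 rises and 0 falls among the 78 genes, with 57 at an unadjusted p under 0.05 (5103 of all 19387 genes) and 43 called by voom, beside 12.4% of all genes called, 6.66% higher and 5.69% lower. The median difference was 0.36, against -0.04 over all genes, and 77 genes had a higher MCR mean. Mrpl12 and Mrps15 led, followed by Mrps35 (0.59 ± 0.12, adjusted p = 0.00169), Mrpl47 (0.57 ± 0.11, adjusted p = 0.00138), Mrpl38 (0.54 ± 0.11, adjusted p = 0.00312) and Mrpl16 (0.53 ± 0.13, adjusted p = 0.00736). Mrpl47 and Mrpl16 are counterparts of bacterial L29 and L16, and Mrpl38 is a mitochondria-specific protein of the central protuberance. Of the genes named by role, Mrpl3 had the smallest adjusted p (0.40, adjusted p = 0.000506), and Mrps27, Mrps30, Mrps2, Mrpl37, Mrpl10 and Mrpl58 also rose, by 0.28 to 0.49. All MCR libraries were above all Obese libraries in 24 genes, an arrangement of 6.42% of all genes.

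This count rested on few libraries. Without MCR 2 it was 57, and it was 16 without MCR 1, 19 without MCR 3 and 20 without Obese 2. Removing the 8 libraries low in B cell genes left 1 MCR library and 0 calls, with a median member difference of 0.22. The count was 19 with lane as a term, 18 with the luminal epithelium mean as a covariate and 15 when only MCR and Obese libraries were fitted.

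ICR against Obese gave 11 rises and 1 fall, with 24 genes at an unadjusted p under 0.05 (4478 of all 19387 genes), beside 9.21% of all genes called, 3.99% higher and 5.23% lower. The median difference was 0.09. The rises were led by Mrps35, which had 737, 767, 852.5, 890.4 and 737 normalized counts in ICR libraries, clear of the Obese libraries (0.55 ± 0.11, adjusted p = 0.00209), and by Mrps15 (0.55 ± 0.16, adjusted p = 0.0320). Mrpl38 (0.44), Mrpl39 (0.41), Mrps5 (0.38) and Mrpl45 (0.36) followed, with adjusted p-values of 0.00934 to 0.0464. The fall was in Mrpl54, at 459.8, 428.5, 469.9, 431 and 514 in ICR libraries, against 693, 462, 609, 517 and 765 in Obese libraries. The Mrpl54 groups overlapped (-0.36 ± 0.11, adjusted p = 0.0279), and its 2 highest Obese libraries were the 2 low in B cell genes. In 13 genes every ICR library was above every Obese library, as in 4.32% of all genes. The count of called genes was 6 without ICR 1, 7 without ICR 2, 7 without ICR 4 and 5 without Obese 2.

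Among the 3 restricted diets, an F-test per gene called 0 of the 78 genes at an adjusted p under 0.05 (limma), 0 by voom, and 0.00% of all genes. At an unadjusted p under 0.05 there were 50 of the 78 and 2506 of all 19387 genes, and leaving out MCR 2 gave 5 calls. The difference between the counts of LFCR, MCR and ICR therefore did not pass a test for any single member.

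For the low-fat diet without restriction, the share of members called was near that of all genes. LFD against Obese gave 2 rises (2.56% of members, beside 2.70% of all genes called higher), Mrpl38 (0.40 ± 0.11, adjusted p = 0.0275) and Mrps35 (0.38 ± 0.11, adjusted p = 0.0377), with 16 members and 3950 of all 19387 genes at an unadjusted p under 0.05, beside 5.98% of all genes called in either direction and 3.28% lower. Mrpl38 had 877, 868, 943, 1205 and 1209 normalized counts in LFD libraries, against 826, 677, 717, 772 and 811 in Obese libraries, without overlap, an order that 4 members and 2.42% of all genes showed. LFD 1 was low in many members (mean 9.31) and was 1 of the 8 libraries low in B cell genes. The count of 2 became 0 without Obese 2, Obese 3, LFD 4 or LFD 5, 1 without Obese 1, Obese 5 or LFD 3, and 4 without LFD 1.

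LFCR against LFD tests the restriction added to a low-fat diet. In it 32 of the 78 genes rose and 0 fell, with 58 at an unadjusted p under 0.05 (4898 of all 19387 genes) and 27 called by voom, beside 9.60% of all genes called, 6.29% higher and 3.32% lower. The 32 were 23 Mrpl and 9 Mrps genes by symbol, and the median difference was 0.34. Mrpl12 (0.73 ± 0.19, adjusted p = 0.0209) led. Mrpl42 (0.64), Mrps22 (0.58), Mrps15 (0.58), Mrpl20 (0.57) and Mrpl16 (0.56) followed. Mrps22 had 818, 687, 621, 632 and 540.4 normalized counts in LFCR libraries, against 402, 458, 385, 439 and 461 in LFD libraries, with no overlap (adjusted p = 0.0133), an order that 18 members and 5.47% of all genes showed. Counts fell to 5 without LFD 1, 4 without LFD 3, 8 without LFCR 1, 3 without LFCR 2 and 10 without LFCR 3, and were 0 without the 8 libraries low in B cell genes or with the luminal epithelium mean as a covariate. Luminal epithelial genes differed in the opposite direction, with 11 of 15 lower and 1 higher in LFCR against LFD. Their part in the result was tested only through that covariate.

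Obesity itself gave few calls among the members, and the share that fell, 2.56%, was near that of all genes, 3.44%. In Obese against Control 2 of the 78 genes fell and 0 rose, with 12 at an unadjusted p under 0.05 (5599 of all 19387 genes) and 4 called by voom, beside 12.9% of all genes called, 9.44% higher and 3.44% lower. The 2 were Mrpl24 and Mrpl19, neither of them among the genes that rose on restriction. Mrpl24 had 1559, 1619, 1784, 2006 and 1589.6 normalized counts in Obese libraries, against 2198, 1890.0, 2033, 2071 and 2145 in Control libraries (-0.27 ± 0.09, adjusted p = 0.0390). Mrpl19 had 563, 571, 645, 683 and 526 in Obese libraries, against 720.1, 743, 743, 661 and 700.0 in Control libraries (-0.25 ± 0.08, adjusted p = 0.0437). In both genes the highest Obese library lay inside the Control range. The count became 0 without Control 1, Control 5, Obese 1 or Obese 5, 1 without Control 2 and 4 without Obese 4.

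Both genes share exonic bases with a gene on the other strand. Rrnad1 covers 26.3% of the exonic length of Mrpl24 (chr3:87919506-87923672), and Gcfc2 covers 36% of that of Mrpl19 (chr6:81957851-81965958). Rrnad1 fell by 0.32 in Obese against Control (adjusted p = 0.0482), whereas Gcfc2 differed by -0.06 (adjusted p = 0.75). These neighbours were named after their values were seen. In all, 32 members share exonic bases with another gene of the table, 27 on the opposite strand and 7 on the same strand. The largest shares were in Mrpl53 (88.0%, Gm42688, same strand), Mrps25 (69.8%, Nr2c2, opposite strand) and Mrps34 (63.4%, Mapk8ip3, opposite strand). Mrps34 also shares 37.0% with Nme3 on the same strand. The part of shared reads in the values of these members was not tested.

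Against Control fat pads, LFCR showed 60 rises and 1 fall among the 78 genes, beside 38.1% of all genes called, 20.1% higher and 18% lower. In 33 of them every LFCR library was above every Control library, as in 12.2% of all genes. The largest rises were in Mrpl42 (0.82), Mrpl12 (0.80), Mrps15 (0.78), Mrps6 (0.77), Mrpl27 (0.77) and Mrpl55 (0.75), and the fall was in Mrpl19 (-0.23, adjusted p = 0.0314). MCR against Control showed 47 rises and 1 fall, in Mrpl24 (-0.26, adjusted p = 0.0393), beside 29.6% called, 13.9% higher and 15.7% lower, and in 10 genes the libraries of MCR lay all above those of Control, as in 4.08% of all genes. That count was 19 without Control 1, 17 without Control 2, 5 without MCR 1, 6 without MCR 3 and 22 without MCR 4. It was 0 with the B cell mean as a covariate, when only the 2 groups were fitted, or without the 8 libraries low in B cell genes. These comparisons share their LFCR and MCR libraries with those against Obese. Cell type markers also differed here. Of 10 adipocyte genes, 9 rose in LFCR and 8 in MCR against Control, and none fell. Of 13 B cell genes 12 fell in MCR against Control and of 8 T cell genes 8 fell. In LFCR against Control 0 of either list passed by limma or voom, although 3 and 8 had an unadjusted p under 0.05 and the median differences were -2.89 and -2.52. Of 8 macrophage genes, 4 fell in LFCR and 1 in MCR, and of 15 luminal epithelial genes 4 fell and 1 rose in LFCR and 1 rose in MCR against Control. With the B cell mean as a covariate 46 members were called in LFCR against Control, and the part of adipocyte, T cell and macrophage content was not tested.

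Mrps6, a counterpart of bacterial S6, had a higher mean in Obese and all diet groups than in Control libraries, as 34 of the 78 members had on the log2 scale. It averaged 2078 ± 562 normalized counts in LFCR, 2005 ± 582 in MCR, 1969 ± 455 in ICR, 1788 ± 262 in LFD and 1893 ± 604 in Obese libraries, and 1218 ± 377 in Control libraries (SD, n = 5, or 4 for MCR). The rise over Control passed in LFCR (adjusted p = 0.0151) and MCR (adjusted p = 0.0366), and the Obese difference of 0.62 did not (adjusted p = 0.0803). Mrps6 shares 10.4% of its exonic length with Slc5a3, the myo-inositol transporter, on the same strand.

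The other comparisons with Control gave few calls. ICR against Control called Mrps30 higher (0.36 ± 0.10, adjusted p = 0.0443) and Mrpl19 lower (-0.32 ± 0.08, adjusted p = 0.0292), with 16 genes at an unadjusted p under 0.05 (4765 of all 19387 genes), beside 4.58% of all genes called, 3.69% higher and 0.882% lower. Its count was 0 without Control 1, Control 2, Control 5, ICR 1, ICR 2 or ICR 4, 1 without ICR 5 and 5 without Control 4. LFD against Control called 0 of the 78 genes and 0.00% of all genes by limma, and 0 of the 78 by voom, with 3 members and 2425 of all 19387 genes at an unadjusted p under 0.05.

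**Figure D4:**
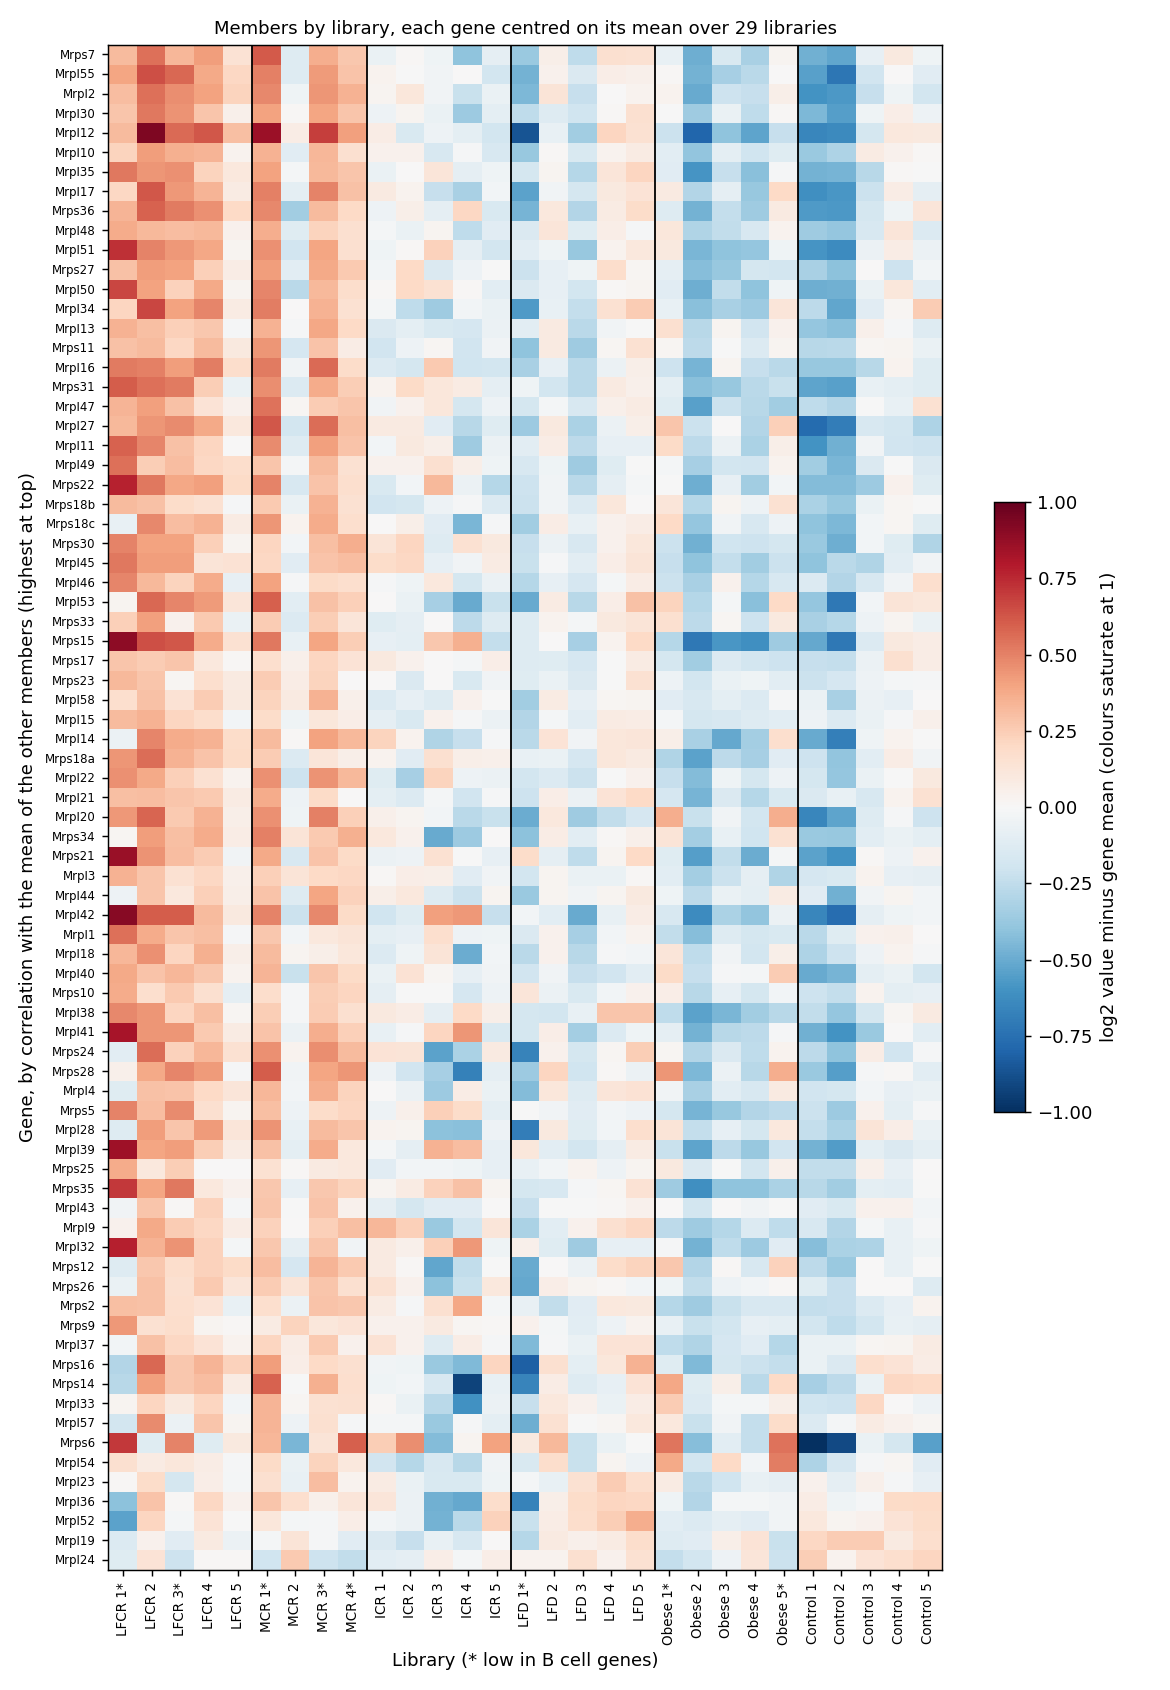
Log2 value of each gene minus its mean over the 29 libraries, with genes ordered by their correlation with the mean of the other members and libraries by group. Stars mark the 8 libraries low in B cell genes. Most rows are red in LFCR 1 to 4 and in MCR 1, 3 and 4 and blue in Obese 2 and Control 1 and 2, and the lowest rows (Mrpl24, Mrpl19, Mrpl52, Mrpl36) do not follow.

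Over the 29 libraries most members moved together, as a description and over points that share library depth and tissue composition. The correlation of a gene with the mean of the other members had a median of 0.851, with 54 genes over 0.8, 19 between 0.5 and 0.8 and 5 under 0.5. With group means taken out the median was 0.746. Mrps7 (0.972), Mrpl55 (0.971), Mrpl2 (0.968), Mrpl30 (0.960) and Mrpl12 (0.957) followed the mean most closely. Mrpl23 (0.485), Mrpl36 (0.359) and Mrpl52 (0.135) followed it loosely, and Mrpl19 (-0.164) and Mrpl24 (-0.343) ran against it. The genes outside the family most like the member mean were Atp5a1 (0.980), Suclg1, Ndufa9, Mtch2, Ndufb8, Mdh1, Fh1, Cox7c, Ptges2 and Sdhd (0.970), of which 5 belong to the list of 79 oxidative phosphorylation genes.

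Promoters were compared because these genes move together. RefSeq promoter sequences of GRCm38.p6, 250 bases before to 50 after the start, were matched by symbol for 69 of the 78 genes. The 9 without an entry were Mrpl4, Mrpl13, Mrpl15, Mrpl19, Mrpl38, Mrpl54, Mrps28, Mrps34 and Mrps35. Searched on both strands, the ETS core CCGGAAG was in 26 of the 69 (37.7%), against 9.93% of 27025 genes with a promoter. The NRF1 motif, GCGC on both sides of any 2 bases, was in 14 (20.3%, against 7.0%) and the YY1 motif AAGATGGC in 12 (17.4%, against 3.19%). At least 1 of the 3 was in 44 members (63.8%), against 17.9% of all genes. The 27025 genes are not limited to those expressed here, and a comparison with expressed genes alone was not made. The E-box CACGTG (7.25%, against 8.09%) and CCAAT (39.1%, against 41.1%) were about as frequent as elsewhere, and the ERR motif TCAAGGTCA was in 0 of the 69, against 0.466%.

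The 150 bases before the start are shown for the 5 of the 6 largest rises in LFCR against Obese that have an entry, for Mrpl9, Mrps22 and Mrpl3 as further members with a motif, and for Mrpl24, which ran against the others. The starts are those of the RefSeq entries and not of the GENCODE positions given for genes above. The stretches of Mrps15, Mrpl12, Mrps18a, Mrpl9, Mrpl3 and Mrpl24 run past the GENCODE start, and that of Mrpl39 lies inside the GENCODE gene. Capitals mark the ETS core (either strand) or the NRF1 motif, and sequences without capitals hold none of the 3 motifs in this stretch. The stretches lie at chr4:126046778-126046927 (Mrps15, plus strand), chr11:120484487-120484636 (Mrpl12, plus strand), chr10:95501950-95502099 (Mrpl42, minus strand), chr16:84735245-84735394 (Mrpl39, minus strand), chr17:46110854-46111003 (Mrps18a, plus strand), chr3:94443186-94443335 (Mrpl9, plus strand), chr9:98601680-98601829 (Mrps22, minus strand), chr9:105053118-105053267 (Mrpl3, plus strand) and chr3:87919394-87919543 (Mrpl24, plus strand), and each is written in the direction of its gene.
Mrps15: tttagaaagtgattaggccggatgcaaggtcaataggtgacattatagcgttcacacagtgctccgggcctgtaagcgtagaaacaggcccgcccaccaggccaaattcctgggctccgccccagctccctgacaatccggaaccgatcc
Mrpl12: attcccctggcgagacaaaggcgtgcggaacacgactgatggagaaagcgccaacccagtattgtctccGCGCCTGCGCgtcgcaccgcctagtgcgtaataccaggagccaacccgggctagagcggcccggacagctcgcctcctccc
Mrpl42: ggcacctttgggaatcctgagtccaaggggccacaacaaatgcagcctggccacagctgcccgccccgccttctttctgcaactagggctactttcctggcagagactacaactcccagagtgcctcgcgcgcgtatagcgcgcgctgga
Mrpl39: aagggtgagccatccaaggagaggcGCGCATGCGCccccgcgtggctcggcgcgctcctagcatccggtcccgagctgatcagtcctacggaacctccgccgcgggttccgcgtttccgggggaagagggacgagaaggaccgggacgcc
Mrps18a: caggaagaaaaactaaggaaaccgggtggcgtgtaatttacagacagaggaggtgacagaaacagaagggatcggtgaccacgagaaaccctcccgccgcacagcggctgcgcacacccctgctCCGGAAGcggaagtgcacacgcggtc
Mrpl9: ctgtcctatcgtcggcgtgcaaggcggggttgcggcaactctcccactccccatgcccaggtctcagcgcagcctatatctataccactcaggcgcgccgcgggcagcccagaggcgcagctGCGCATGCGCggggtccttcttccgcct
Mrps22: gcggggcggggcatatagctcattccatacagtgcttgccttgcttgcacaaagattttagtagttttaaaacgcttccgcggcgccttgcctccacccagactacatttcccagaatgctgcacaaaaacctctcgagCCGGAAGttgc
Mrpl3: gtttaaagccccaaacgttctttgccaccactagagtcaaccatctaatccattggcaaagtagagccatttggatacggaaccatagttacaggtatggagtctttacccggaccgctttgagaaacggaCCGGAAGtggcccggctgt
Mrpl24: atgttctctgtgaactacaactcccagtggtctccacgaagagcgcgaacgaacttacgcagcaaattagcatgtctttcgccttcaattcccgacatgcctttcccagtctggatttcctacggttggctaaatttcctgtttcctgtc

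The motifs were present in members that rose and in members that did not pass. The ETS core was in 14 of 45 members called higher in LFCR against Obese and in 12 of 24 members not called. The NRF1 motif was in 10 of 45 and 4 of 24, and the YY1 motif in 8 of 45 and 4 of 24. Mrps15 and Mrpl42, with 2 of the 3 largest rises, hold none of the 3 in the printed stretch. Among the factors themselves, named for their motifs after values were seen, Nrf1 (-0.17, adjusted p = 0.330), Gabpa, an ETS factor (0.01, adjusted p = 0.955), and Yy1 (0.03, adjusted p = 0.850) did not pass in LFCR against Obese.

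Partner genes of mitochondrial translation shifted alongside. Of 5 mitoribosome proteins with other symbols, Ptcd3 (0.51, adjusted p = 0.000187) and Chchd1 (0.35, adjusted p = 0.0151) rose in LFCR against Obese, and Dap3 (0.25, adjusted p = 0.0533), Aurkaip1 (0.31, adjusted p = 0.0890) and Gadd45gip1 (0.23, adjusted p = 0.0953) had higher means that did not pass. Of 14 translation factors 8 rose and 0 fell, led by the elongation factors Tufm (0.80, adjusted p = 2.06e-05) and Gfm1 (0.76, adjusted p = 0.00124) and by Guf1 (0.37, adjusted p = 0.00175). Of 17 mitochondrial tRNA synthetases 8 rose and 0 fell, led by Nars2 (0.52), Vars2 (0.53) and Iars2 (0.56). Of 22 assembly factors 8 rose, led by Ybey (0.47), Eral1 (0.35) and Noa1 (0.41), and the rRNA methyltransferase Mrm1 fell (-0.35, adjusted p = 0.0475). In MCR against Obese the rises were 1, 5, 6 and 5 of the same 4 lists. Over all genes, 11.9% were called higher in LFCR against Obese and 6.66% in MCR against Obese. The member count in the MCR comparison rested on few libraries, as given above.

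In Obese against Control, a few genes of these lists fell. The factors Gfm2 (-0.33, adjusted p = 0.0259) and Tufm (-0.33, adjusted p = 0.0494) fell, as did 3 of 17 synthetases, Wars2 (-0.29), Tars2 (-0.31) and Yars2 (-0.30). Among the assembly factors, Mterf3 (-0.27) and Fastkd2 (-0.31) fell and Rbfa rose (0.20). These few calls stand beside 3.44% of all genes called lower, and the difference from the members was not tested.

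Genes that make, supply or use the mitoribosome's products also changed. Of 15 genes of mitochondrial DNA and RNA upkeep 6 rose in LFCR against Obese, led by Lrpprc (0.46), Supv3l1 (0.47) and Elac2 (0.40), and of 23 protein import genes 10 rose, led by Timm44 (0.63), Timm17b (0.46) and Tomm6 (0.64). Of the 79 oxidative phosphorylation genes 68 rose and 0 fell, with a median difference of 0.89, beside 11.9% of all genes called higher. In MCR against Obese 60 rose with a median of 0.79, beside 6.66% of all genes called higher. The members' median of 0.40 in LFCR against Obese was below that of oxidative phosphorylation, and the difference between the lists was not tested. Of 9 regulators of mitochondrial biogenesis, 3 rose and 1 fell in LFCR against Obese. The coactivators Ppargc1a (1.69, adjusted p = 0.000151) and Ppargc1b (1.18, adjusted p = 0.000175) and the nuclear receptor gene Esrra (0.75, adjusted p = 0.00116) rose. Pprc1 fell (-0.51, adjusted p = 0.0254). As a list these 9 did not shift with the members: 5 had a higher and 4 a lower LFCR mean, with a median difference of 0.01. Their median correlation with the member mean was -0.439.

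Proteins of the cytosolic ribosome, which translates nuclear messages, are encoded by a separate gene family. Of its 86 genes, limma called 0 in LFCR against Obese, with 1 at an unadjusted p under 0.05 and 1 called lower by voom, and their median difference was -0.22. In LFCR against LFD 3 fell and 0 rose (Rpl10, Rpl22 and Rpl37), and in Obese against Control 1 rose and 2 fell. Against Control most of them fell in LFCR, with 67 lower and 1 higher of the 86 and a median difference of -0.51, beside 18% of all genes called lower. By voom 65 fell, and without the 8 libraries low in B cell genes 23 fell. In MCR against Control 19 fell and 1 rose, with 6 lower by voom and 0 without those 8 libraries. In ICR against Control 0 passed by limma or voom, with 48 at an unadjusted p under 0.05 and a median of -0.35. Without those 8 libraries 61 fell, although none of the 8 is an ICR or Control library. The ICR and Control means were therefore unchanged, and only the shared estimate of the spread and the p adjustment differed.

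**Figure D5:**
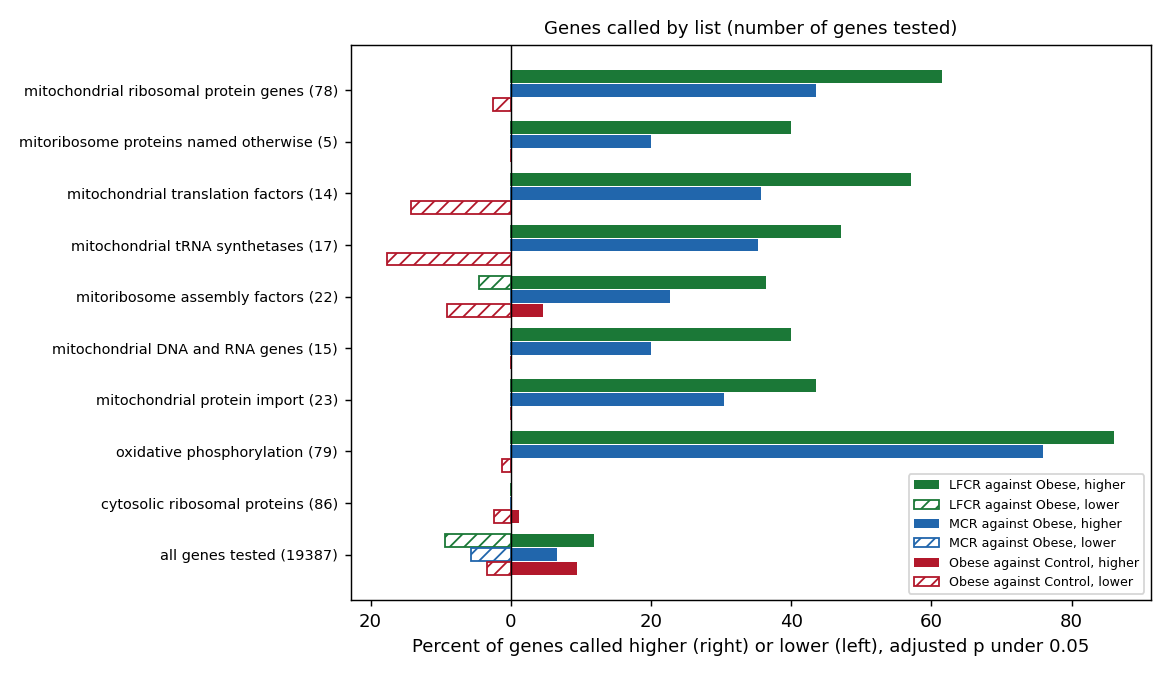
Percent of each gene list called higher (bars to the right) or lower (hatched bars to the left) at an adjusted p under 0.05, with the number of genes tested in brackets, in LFCR against Obese, MCR against Obese and Obese against Control. The 78 mitoribosomal genes reach 61.5% in LFCR against Obese, oxidative phosphorylation genes exceed them, and cytosolic ribosomal proteins have no bar there.

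Adipocyte, thermogenic adipocyte, macrophage and endothelial markers also differed between groups. Over the 29 libraries, the median correlation with the member mean was 0.797 for 10 adipocyte genes and -0.511 for 8 macrophage genes. It was 0.612 for 7 thermogenic adipocyte genes and 0.244 for 7 endothelial genes. The mean of 10 adipocyte genes was 15.73 ± 0.29 in LFCR, 15.51 ± 0.54 in MCR, 15.46 ± 0.24 in ICR, 15.07 ± 0.12 in LFD, 15.01 ± 0.53 in Obese and 14.38 ± 0.67 in Control libraries, and 6 of the 10 rose and 1 fell in LFCR against Obese. In Obese against Control 3 adipocyte genes rose while the member median was 0.00. Macrophage genes were lower in LFCR than in Obese libraries, at 5 of 8. Of 7 thermogenic adipocyte genes, 3 rose and 0 fell in LFCR against Obese (median difference 1.69). In MCR against Obese 3 of these rose and 0 fell, and in Obese against Control 3 fell and 0 rose. Of 7 endothelial genes, 2 fell and 0 rose in LFCR against Obese, and 5 rose and 0 fell in Obese against Control. Skeletal muscle genes, highest in Obese 2 with a mean of 11.47, passed in 0 of 13 by limma and by voom, with 1 at an unadjusted p under 0.05. The part of adipocyte, thermogenic adipocyte, macrophage or endothelial content in these results was not tested. Within sequencing lanes, the LFCR member mean exceeded the Obese mean in 4 of 4 lanes, by 0.09 to 0.75, and the MCR mean exceeded it in 3 of 3 lanes, by 0.10 to 0.51.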

How the data were processed

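Expression was measured by RNA-seq in 29 mammary fat pad libraries, whose 6 groups come from the labelled treatment. Per the labels' protocols, RNA was taken up in TRIzol, the total RNA kit was stranded and reads were paired, of 76 bases. The submitters' processing notes name TopHat2 2.0.7, HTSeq 0.5.3p9, DESeq2 and mm10 without roles. The annotation and how reads were counted are not stated in them. The deposited table holds log2 values made by the authors. Undoing a variance-stabilising transform, with the lowest value, 3.75, as 0 reads, gave whole reads (100%, tolerance 0.01), so the values were taken as variance-stabilised log2 values of normalized counts, an inference from the values. The transform compresses low values, so differences of low genes are understated.

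limma 3.58.1 (R 4.3.3, statmod 1.5.0; trend and robust options) fitted 1 mean per group over all 29 libraries to 19387 genes with a normalized count of 10 or more in at least 4 libraries. P-values were adjusted by Benjamini-Hochberg over all these genes, with a threshold of 0.05. The steps were run on simulated data for Obese against Control only, with changes larger than most member differences and without shifts in cell content. That run does not cover smaller differences. Members and lists were chosen with earlier results of these data known. Named members are, per comparison, up to 6 largest called rises and falls, the 3 nearest 0 and members with listed roles; partner lists contribute up to 3 genes each. Alternatives were other minimums, other scalings, voom on recovered reads, lane or marker covariates, fits of only the compared groups and leaving out libraries. No count model is the main test because the table is not counts. Replicate numbers follow accession order. Reads carry no molecular identifiers, and depth is given only as totals.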

Additional observations from a re-analysis of the deposited data

Results flagged for a closer look

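Among 192 sets of 4 or 5 libraries of 1 group (29 members and 3 means), 9 had a highest or lowest library unusually far from the others by Dixon's test, and chance alone flags about 1 in 20 groups. On the log2 scale, Mrps35 was 9.46 in MCR 2, with the other MCR libraries at 9.77 to 9.82, and Mrpl24 was 11.13 in MCR 2, with the others at 10.63 to 10.67. Mrpl36 was 8.83 in Obese 2 (others 9.09 to 9.11) and 8.46 in LFD 1 (others 9.19 to 9.35). Mrpl19 was 9.05 in LFD 1 (others 9.39 to 9.51), and Mrpl44 was 8.90 in LFD 1 (others 9.23 to 9.36) and 8.78 in Control 2 (others 9.15 to 9.29). Mrpl58 was 8.94 in Control 2 (others 9.18 to 9.27), and Mrps30 was 9.63 in Obese 2 (others 9.90 to 9.94).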

How the results depend on the processing

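The rise of members in LFCR against Obese (44 to 55 called) and against Control (46 to 66) stayed within 1.5 times the reported count under every alternative fit other than leaving out single libraries, whose ranges are given at the end. The medians under those fits were 0.39 to 0.48 and 0.35 to 0.45. With the fits that leave out 1 library of the groups compared also included, 40 of the 48 and 40 of the 61 genes were called under every alternative. The other counts moved, and the cause was not tested except where fewer libraries were fitted. Leaving out the 8 libraries low in B cell genes left 1 MCR library, with a member median of 0.22 against Obese and 0.10 against Control. Mrpl24 in MCR against Control then turned to 0.10. The counts without those 8 were 0 in LFCR against LFD, 0 in Obese against Control, 1 in LFD against Obese and 12 in ICR against Control. None of the 8 is an ICR or Control library, so that last count moved only through the shared estimate of the spread and the p adjustment.

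With the luminal epithelium covariate the counts were 18 in MCR against Obese, 4 in ICR against Obese, 0 in LFD against Obese, 0 in LFCR against LFD and 1 in Obese against Control. With the B cell covariate they were 7 in LFD against Obese, 21 in ICR against Obese, 0 in MCR against Control and 4 in ICR against Control. With lane as a term they were 19 in MCR against Obese, 8 in LFCR against LFD and 0 in Obese against Control. With only the groups compared they were 15 in MCR against Obese, 0 in MCR against Control, 12 in LFCR against LFD, 1 in ICR against Control, and 0 in LFD against Obese and in Obese against Control. With no minimum they were 20 in LFCR against LFD, 1 in LFD against Obese, and 0 in ICR against Control and in Obese against Control. The muscle covariate gave 21 in LFCR against LFD, and voom gave 4 in Obese against Control.

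Leaving out each library gave 43 to 51 calls in LFCR against Obese, 16 to 57 in MCR against Obese, 5 to 11 in ICR against Obese, 0 to 4 in LFD against Obese, 0 to 4 in Obese against Control and 0 to 5 among the restricted diets. Against Control it gave 49 to 62 in LFCR, 5 to 65 in MCR, 0 to 5 in ICR and 0 to 0 in LFD, and 3 to 47 in LFCR against LFD. For called genes named by size or listed role, 1635 values under alternatives kept direction and threshold, 411 lost the threshold and 1 turned. Genes called but not named are not in these counts. Leaving out any 1 library of the groups compared kept 43 of all 48 calls in LFCR against Obese and 46 of 61 against Control. It kept 16 of 34 in MCR against Obese, 5 of 48 in MCR against Control, 3 of 12 in ICR against Obese and 3 of 32 in LFCR against LFD. No paired analysis by replicate number was possible because the numbers only follow accession order. Sequencing lanes held libraries of several groups, and the fit with lane as a term is the blocked one; it called 44 members in LFCR against Obese and 58 in LFCR against Control.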
